A study of Mus musculus with 2 samples.

Results

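B cells made up 137 of the 21898 cells of 2 single-cell libraries of mouse choroid and retinal pigment epithelium (RPE). Unique molecular identifiers (UMIs) count transcript molecules, and a barcode was taken as a cell from 1000 UMIs and 500 genes upward where no more than 20% of its UMIs were mitochondrial. It was taken as a B cell with at least 3 UMIs of Cd79a, Cd79b and Ms4a1 together from at least 2 of these genes, no UMI of Cd3e or Nkg7, at most 2 UMIs of C1qa, C1qb and C1qc, and at most 2 of Cdh5, Sox10 and Rpe65. The members were thus chosen by measured UMIs of these genes, whose levels are given only as a description. It found 67 B cells among 8497 cells of library 1 and 70 among 13401 cells of library 2.

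Both libraries came from wild-type ICR mice, an outbred albino strain, at 8 weeks of age, with no treatment. Per the labels, each library pooled dissected choroid-RPE tissue of 1 male and 1 female mouse, digested for 2 h with collagenase A and for 30 min with trypsin, and was made with the 10x Chromium 3′ v3.1 chemistry from 10000 loaded cells. There was 1 group of 2 libraries and no contrast of conditions, so B cells were compared with the other immune cells of the same libraries. The gates for these found 86 T and NK cells (38 and 48 by library), 96 dendritic cells (35 and 61) and 1171 macrophages (385 and 786).

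B cells are the lymphocytes that make antibody. Each B cell carries 1 rearranged heavy chain and 1 light chain, of the kappa or the lambda type, held at the surface with the signalling pair Cd79a and Cd79b as the B cell receptor. A mature naive B cell makes IgM and IgD from the same heavy chain transcript, circulates between blood, spleen and lymph nodes, and presents peptide on MHC class II to helper T cells. After activation it can switch its heavy chain class or become an antibody-secreting plasma cell. The choroid is rich in blood vessels, and B cells of its tissue and of the blood in its vessels cannot be told apart in these data.

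The share of B cells was 0.789% of cells in library 1 (95% Clopper-Pearson interval 0.612 to 1.00%) and 0.522% in library 2 (0.407 to 0.660%), a mean of 0.655% ± 0.188 (SD, n = 2). The intervals cover counting error only and overlap. Library 2 held 13401 cells although 10000 were loaded, and 31 barcodes were cells of both libraries, 1 of them a B cell of library 2. The libraries held 91741168 and 149570817 UMIs in all, of which the B cells held 286442 and 353662. A B cell of library 1 had between 1630 and 17363 UMIs with a median of 3376, and a B cell of library 2 had between 1430 and 32264 with a median of 3368. The medians of all cells were 7842 and 8253 UMIs, so B cells were among the shallower cells. Gene counts per B cell had medians of 1233 and 1360.

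The marker sum that chose the cells ran from 4 to 47 UMIs in library 1 (median 14) and from 3 to 50 in library 2 (median 13). Most members lay well inside the limit, since 57 of 67 and 66 of 70 had at least 6 marker UMIs. Cd79a alone had medians of 9 and 8 UMIs per cell. It was not counted in T/NK cells, dendritic cells or macrophages, but their gates allowed at most 1 UMI of the 3 marker genes together. Just inside the limit, 0 and 1 members had 3 marker UMIs, and 10 and 3 had 4 or 5. Just outside it, 1 cell of library 1 had 2 UMIs from 2 genes, and 7 and 4 cells had 3 or more UMIs from a single gene. A further 5 and 3 cells met the marker limit but had over 2 UMIs of Cdh5, Sox10 and Rpe65, with median depths of 33714 and 23697 UMIs.

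Some members carried transcripts of a second cell type. In library 1, 3 members, and in library 2, 7 members also met the marker limits of fibroblasts, mural cells or melanocytes, the last without their Sox10 limit. These mixed members were kept, while cells passing more than 1 comparison gate were left out of the comparison classes. The mixed members had a median depth of 9732 and 11315 UMIs, against 3339 and 3259 UMIs in the other members. Scrublet, a doublet caller, marked 1 and 3 of them. They held most stromal and pigment UMIs of the class. The UMIs of Dcn, a fibroblast proteoglycan, went from 105 to 8 in library 1 and from 557 to 24 in library 2 without them. For Pmel, a melanosome protein, the counts went from 277 to 3 and from 219 to 13. Pmel, Tyrp1 and Tyr of the melanocyte list and Col1a2 and Lum of the fibroblast list were therefore called higher in B cells than in other immune cells, and none of these 5 was called without the mixed members. Named results that lose their call without these 10 members are given with and without them. Of 14 T and NK genes 9 were at 0 in B cells, among them Cd3d, Cd3g and Trac. The summed T and NK list stood at 32.0 and 22.6 CPM (UMIs scaled to library size) in B cells against 8501 and 7894 CPM in T/NK cells. The macrophage list stood at 1643 and 865 CPM against 32922 and 26223 CPM in macrophages, and 186 UMIs of Lyz2, the lysozyme gene, in 2 cells of library 1 lay outside the 10 mixed members.

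**Figure D1:**
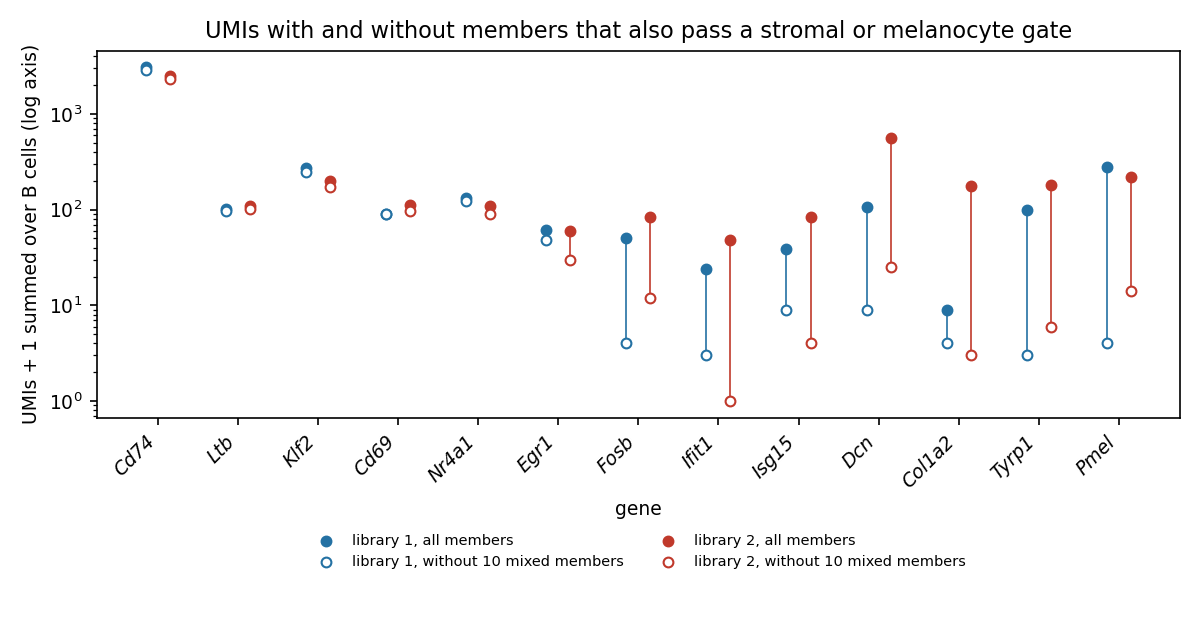
UMIs plus 1 of 13 genes summed over the B cells of each library, on a log axis, with all members (filled) and without the 10 mixed members (open). Cd74, Ltb, Klf2 and Cd69 hardly moved, while Dcn, Col1a2, Tyrp1, Pmel, Fosb, Ifit1 and Isg15 lost most of their UMIs in library 2.

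For the comparisons, UMIs were summed over the cells of each class and library, scaled to CPM with TMM library sizes, and fitted with edgeR's quasi-likelihood test over 14735 genes and 10 classes with library as a block. Calls needed a Benjamini-Hochberg adjusted p under 0.05 together with a log2 fold change of 1 or more in either direction, and every adjusted p below is from this edgeR fit unless another tool is named. With 2 libraries, each of pooled mice, these p-values rest on the spread between libraries that is left after the block. That spread was estimated over all 10 classes and was not measured in B cells alone. Against the equal-weighted mean of T/NK cells, dendritic cells and macrophages (the other immune cells below), 914 genes were called higher in B cells, 6.2% of those tested, and 453 lower, 3.07%. Without the 10 mixed members the counts were 511 and 814. Counts within a gene list below are to be read beside these shares over all genes. The median log2 fold change over all genes was 0.12, and -0.32 without the mixed members. Against T/NK cells leaving those members out turned 515 higher and 297 lower genes to 308 and 393. Against dendritic cells and macrophages more genes were lower with them (807 higher and 1058 lower, and 1326 and 1836), and more so without them (544 and 1383, and 807 and 2340). Where a class had no UMI of a gene, the fold is given as a lower bound, set against a floor of 3 UMIs summed over both libraries.

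Surface and identity genes of the B lineage were higher in B cells as a group. Of 18 tested genes of this list 14 were called higher than in the other immune cells, none lower, with a median log2 fold change of 3.68 when absent genes stand at their bound. These genes were not used by the selection rule, but they come from the same cells. Vpreb3, which codes for a small partner of immunoglobulin chains in assembly (chr10:75943057-75949657, GRCm38, plus strand), was at 230.6 and 140.3 CPM, from 35 and 27 B cells with a UMI. It was at 0 in the other immune cells and at least 482-fold higher than in macrophages and at least 29.1-fold higher than in T/NK cells. The bounds differ because 1171 macrophages were counted more deeply than 86 T and NK cells. Fcmr, the Fc receptor for IgM, was at 163.3 and 147.8 CPM and at least 25.0-fold higher than in T/NK cells. Fcer2a, the low-affinity IgE receptor CD23, was at 48.0 and 47.6 CPM, from 10 and 14 cells.

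Other genes of this list were shared with other immune cells. Cd37, a tetraspanin of leukocytes, was at 393.9 and 268.1 CPM in B cells and above 0 in all 4 immune classes, with a log2 fold change of 2.60 ± 0.22 (SE, adjusted p = 7.2e-10). Ralgps2, an exchange factor for Ral GTPases, was higher by 3.02 ± 0.29 (adjusted p = 6e-09) and Cd24a by 3.32 ± 0.37 (adjusted p = 2.4e-07). In dendritic cells Cd24a stood at 129.1 and 133.3 CPM against 118.5 and 102.7 CPM in B cells, and was not called there (-0.28 ± 0.29, adjusted p = 0.6). Cd40, the receptor for the T cell signal CD40L, was at 35.2 and 27.6 CPM in B cells, below dendritic cells (log2 fold change -1.77 ± 0.39, adjusted p = 0.0014). Ptprc, the common leukocyte antigen, was at 259.4 and 187.9 CPM and was not called. With DESeq2 the list's count of higher genes fell from 14 to 5, and the calls of Fcer2a, Fcmr, Ly6d and Bank1, all at 0 in at least 1 compared class, were among those lost (adjusted p from 0.285 to 0.55 with DESeq2).

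**Figure D2:**
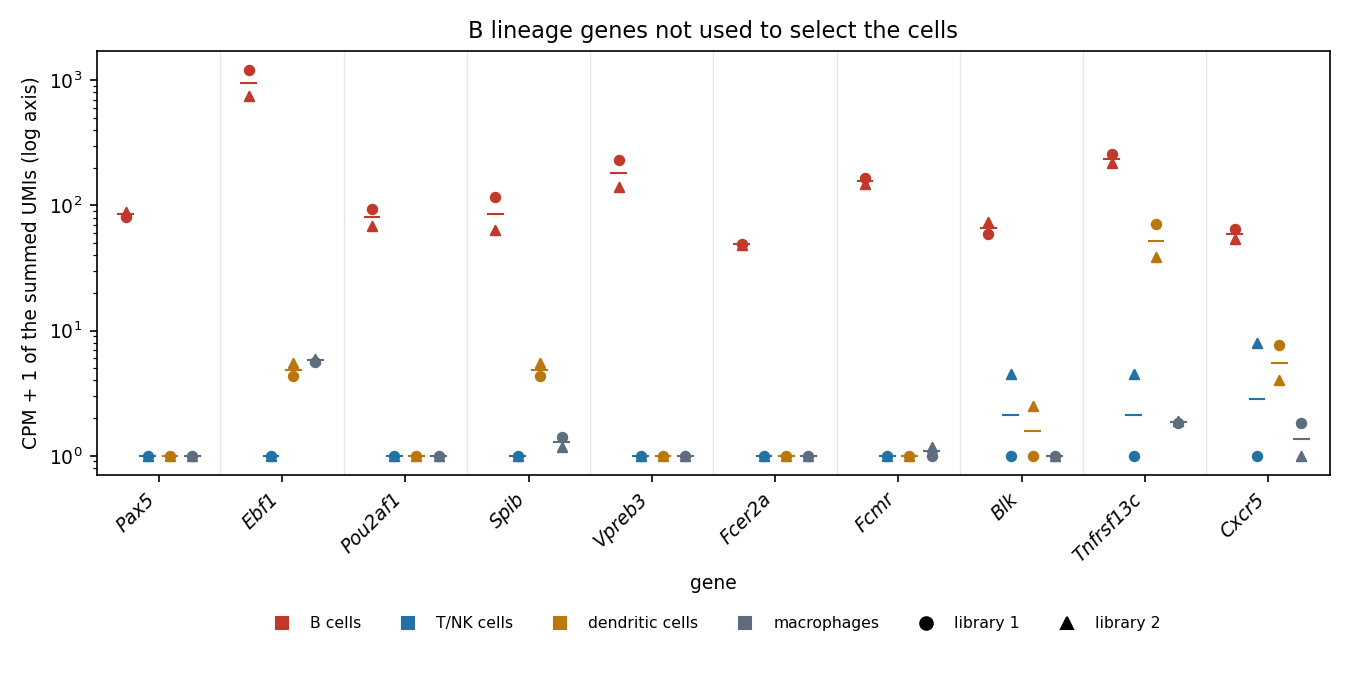
CPM plus 1 of 10 genes in B cells, T/NK cells, dendritic cells and macrophages, on a log axis. Circles are library 1, triangles library 2 and the dash is their geometric mean. The red B cell points stand above all others for every gene, and Tnfrsf13c comes nearest in dendritic cells, at 69.5 and 37.5 CPM.

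Transcription factors that set up and hold B cell identity were mostly higher too. Of 20 tested factors 13 were called higher than in the other immune cells and 1, Etv6, lower (-1.75 ± 0.36, adjusted p = 0.0011), with a median of 1.75, and 12 and 1 without the mixed members. Ebf1, a factor that commits progenitors to the B lineage (chr11:44617317-45008091, plus strand), stood at 1207 and 749 CPM and had a UMI in 66 of 67 and 65 of 70 B cells. It was higher than in dendritic cells by 7.80 ± 0.45 (adjusted p = 3.4e-11) and than in macrophages by 7.58 ± 0.33 (adjusted p = 9.5e-14), and at least 153.7-fold higher than in T/NK cells, which had none. Ebf1 is also a stromal factor, and fibroblasts held 242.5 and 192.0 CPM, with a UMI in 68.1% and 66.5% of fibroblasts at median depths of 8393 and 8350 UMIs. Without the mixed members the B cells kept 359 of 377 and 243 of 299 Ebf1 UMIs. Pax5, the factor that keeps B cells committed (chr4:44524757-44710487, minus strand), was at 80.1 and 87.7 CPM and at 0 in the 3 other immune classes, at least 226-fold above macrophages. Pou2af1, the co-activator OCA-B that works with Oct factors on immunoglobulin genes, was at 92.9 and 67.7 CPM and also at 0 elsewhere, at least 211-fold above macrophages.

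Factors used by several lymphocyte or myeloid types gave smaller differences. Irf4, a factor of activated B cells and plasma cells, was at 83.3 and 147.8 CPM and higher by 2.50 ± 0.31 (adjusted p = 7.5e-07). Foxo1, a factor of lymphocyte homing and receptor genes, was at 105.7 and 107.7 CPM and higher by 1.62 ± 0.24 (adjusted p = 1.1e-05), but close to T/NK cells at 80.4 and 90.8 CPM. Bach2, which holds B cells short of the plasma cell state, was at 51.2 and 62.6 CPM in B cells and 80.4 and 97.8 CPM in T/NK cells. Its log2 fold change over the other immune cells was 1.08 ± 0.35 (adjusted p = 0.039), not called with free RNA subtracted (adjusted p = 0.059), and lost the call without the mixed members (1.02, adjusted p = 0.077) and without the library block (adjusted p = 0.083). Spi1, the myeloid factor PU.1 that B cells carry at low levels, was at 176.1 and 80.2 CPM in B cells against 1680 and 1450 CPM in macrophages (-3.65 ± 0.58, adjusted p = 0.001). Klf2, a factor of quiescent, circulating lymphocytes, was at 861 and 501 CPM in B cells and at 1232 and 499 CPM in T/NK cells, and the difference of -0.31 ± 0.50 (adjusted p = 0.85) was smaller than its SE.

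The octamer ATGCAAAT (reverse complement ATTTGCAT), the letters that Oct factors and their co-activator bind in immunoglobulin promoters, was searched on both strands in the 250 bases before the gene start of RefSeq (GRCm38.p6). It was present in 526 of 32851 windows of all genes (1.60%). Of 58 genes of the lists of identity, transcription factors and receptor signalling 45 had a window, and 3 of these genes held the octamer, in 3 of 59 windows (5.09%): Vpreb3, Blnk and Prkcb. The palindromic EBF motif was in 0.779% of all windows and in those of Cd22 and Foxo1. A match is a description of the letters and shows no binding. The octamer windows are shown because their genes belong to lists described here, with the octamer in capitals, each 5′ to 3′ on the strand of the gene. It starts 45 bases before the gene start in Vpreb3 (chr10:75948050-75948299, plus strand), 130 in Blnk (chr19:40994222-40994471, minus strand) and 70 in Prkcb (chr7:122288875-122289124, plus strand). These RefSeq starts lie downstream of the GENCODE starts. All 3 windows are therefore inside the GENCODE spans of the genes (75943057-75949657, 40928927-40994535 and 122288751-122634402).
Vpreb3: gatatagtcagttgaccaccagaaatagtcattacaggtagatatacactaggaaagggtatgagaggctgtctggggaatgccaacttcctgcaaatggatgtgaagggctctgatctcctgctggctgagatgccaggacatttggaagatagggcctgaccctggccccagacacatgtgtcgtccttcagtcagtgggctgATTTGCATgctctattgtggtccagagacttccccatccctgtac
Blnk: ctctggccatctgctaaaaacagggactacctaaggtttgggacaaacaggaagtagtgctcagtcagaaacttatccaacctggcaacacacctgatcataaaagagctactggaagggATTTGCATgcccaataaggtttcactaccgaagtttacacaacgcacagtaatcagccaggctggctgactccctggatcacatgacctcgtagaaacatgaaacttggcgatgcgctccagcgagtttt
Prkcb: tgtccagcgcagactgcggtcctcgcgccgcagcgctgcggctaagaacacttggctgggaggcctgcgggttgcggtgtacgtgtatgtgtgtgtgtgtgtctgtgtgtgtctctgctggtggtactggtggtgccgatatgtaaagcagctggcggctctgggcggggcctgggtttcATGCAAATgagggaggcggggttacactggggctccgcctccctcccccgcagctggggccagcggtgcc

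Genes of B cell receptor signalling were higher in part. Of 22 tested genes 11 were called higher than in the other immune cells and none lower, with a median of 1.17. The separate comparisons differed. Against T/NK cells 15 were higher and none lower, with a median of 2.97. Against dendritic cells 9 were higher and 5 lower (median 0.027), and against macrophages 6 higher and 5 lower (median -0.27). The members that were higher include the proximal kinases. Blk, a Src-family kinase of B cells, was at 57.6 and 72.7 CPM and at least 177-fold above macrophages, which had none. Lyn, the Src-family kinase that starts and limits receptor signalling, was at 310.6 and 240.6 CPM in B cells, above T/NK cells (6.07 ± 0.52, adjusted p = 1.1e-09), while dendritic cells had 410.6 and 408.9 CPM and macrophages 392.5 and 446.2 CPM. Btk, the kinase that activates phospholipase C, was at 76.9 and 105.2 CPM and higher than in the other immune cells by 3.32 ± 0.40 (adjusted p = 5.6e-07). Blnk, the adaptor between Syk and Btk, was at 121.7 and 117.8 CPM. It was higher than in T/NK cells (5.85 ± 0.91, adjusted p = 0.00018) and dendritic cells (2.41 ± 0.46, adjusted p = 0.00058) but lower than in macrophages, which held 422.1 and 388.2 CPM (-1.76 ± 0.29, adjusted p = 6.6e-05). Plcg2, the phospholipase C of this pathway, was at 35.2 and 25.1 CPM and was not called (0.92 ± 0.60, adjusted p = 0.4). Among inhibitors, Cd22, a sialic acid receptor that dampens the receptor, was at 57.6 and 25.1 CPM and higher than in macrophages by 2.39 ± 0.59 (adjusted p = 0.003, and 0.686 with DESeq2). Inpp5d, the phosphatase SHIP, was at 230.6 and 198.0 CPM and higher than in the other immune cells by 1.19 ± 0.21 (adjusted p = 0.00022). Fcgr2b, the inhibitory Fc receptor, was lower than in macrophages (-2.38 ± 0.34, adjusted p = 1.9e-06). The count of 11 was 7 with DESeq2.

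Heavy chain constant genes placed nearly all B cells in the IgM and IgD class. Ighm (chr12:113418558-113422730, minus strand) had a UMI in 56 of 67 cells of library 1 (83.6%) and 62 of 70 of library 2 (88.6%), with medians of 3 UMIs per cell. Among fibroblasts, which should lack it, the shares were 0.238% and 0.396% at median depths of 8393 and 8350 UMIs. Macrophages had higher shares, of 48.1% and 47.2%, and dendritic cells 14.3% and 21.3%, so an Ighm UMI alone was not limited to B cells. Ighd had a UMI in 46 and 42 cells (68.7% and 60.0%) and in no fibroblast. When each cell was thinned to 1000 UMIs, Ighm was seen in 64.2% and 58.6% of B cells and Ighd in 25.4% and 25.7%. Both genes were seen in 39 and 38 cells, Ighm without Ighd in 17 and 24, and Ighd without Ighm in 7 and 4. By the constant gene with most UMIs, 49 and 53 cells were Ighm, 14 and 11 Ighd, 0 and 3 Igha, and 4 and 3 had no heavy chain UMI. IgG transcripts were close to absent: Ighg1, Ighg3 and Ighe had no UMI, and Ighg2b and Ighg2c had 1 each, in library 2. A count of 0 in 137 cells allows a share of up to 2.19% of cells with a UMI.

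**Figure D3:**
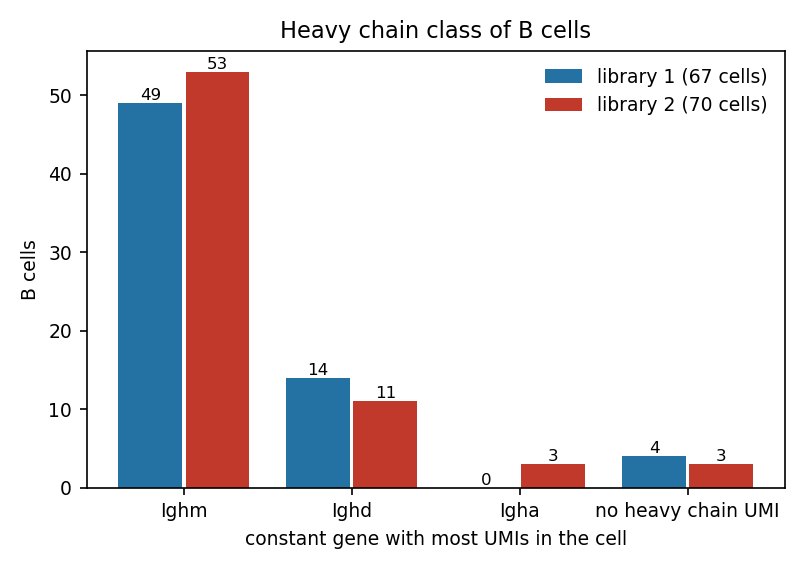
Number of B cells by the heavy chain constant gene with most UMIs in the cell, for 67 cells of library 1 and 70 of library 2. Ighm led in 49 and 53 cells, Ighd in 14 and 11, and Igha only in 3 cells of library 2.

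Among the members, antibody-secreting cells were found in library 2 alone. Jchain, the chain that joins IgA and IgM into polymers (chr5:88519809-88527891, minus strand), had 330, 857, 232 and 417 UMIs in 4 cells of library 2, and 2 UMIs in 1 cell of library 1. These 4 cells held 3327, 3258, 1659 and 3877 UMIs of Igkc, while no other B cell of library 2 had more than 66. In 3 of them Igha led, with 658, 1447 and 614 UMIs, and in 1 Ighm led, with 668. Their most counted variable genes all differed, with Ighv3-2, Ighv2-2, Ighv1-15 and Ighv1-55 for the heavy chain and Igkv1-110, Igkv13-84, Igkv10-96 and Igkv17-127 for the light chain. Without these cells the Igkc UMIs of library 2 went from 13405 to 1284, Igha from 2720 to 1 and Jchain from 1836 to 0. Igha and Jchain were called higher than in the other immune cells with all members, and lost the call without the 4 cells (adjusted p = 0.16 and 0.59). Of 12 tested plasma cell genes 6 were called higher, 4 without these cells, and Xbp1, a factor of secretory cells, stood at 35.2 and 333.3 CPM. Mzb1, a chaperone of IgM assembly found in plasma cells and in some other B cells, was at 278.6 and 719.2 CPM and had a UMI in 37 and 38 cells, so it was not limited to the secreting cells. None of the 67 members of library 1 was such a cell, which allows a share of up to 4.48% of its members. Cells outside the selection rule were not searched for Jchain. The 4 cells had 1, 2, 5 and 1 UMIs of Cd79b and 0, 1, 2 and 0 of Ms4a1, which the rule counts.

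Light chain genes were counted in nearly every B cell. Igkc, the kappa constant gene (chr6:70726435-70726966, plus strand), had a UMI in 63 of 67 cells (94.0%) and 69 of 70 (98.6%), against 0.136% and 1.14% of fibroblasts, and stood at 4723 and 33590 CPM. The lambda constant genes lie together on chromosome 16. Iglc2 (chr16:19198396-19200351, minus strand) was at 723.7 and 631.5 CPM, from 40 and 43 cells (59.7% and 61.4%). It had no UMI in any of 86 T and NK cells, 96 dendritic cells, 1171 macrophages or 2937 and 4549 fibroblasts, and was at least 109-fold, 217-fold and 1801-fold above T/NK cells, dendritic cells and macrophages. Iglc1 (chr16:19061618-19062071) was at 304.2 and 360.8 CPM from 14 and 21 cells, and Iglc3 (chr16:19065230-19065681) at 208.1 and 223.0 CPM from 29 and 32 cells. Of the 8 tested immunoglobulin genes all 8 were called higher than in the other immune cells, 6 without the secreting cells and 4 with DESeq2, which lost Iglc1, Iglc2, Iglc3 and Ighd.

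The lambda genes differ in how alike their coding bases are. Over 314 aligned coding bases of GRCm38, Iglc2 and Iglc3 shared 96.5% (11 differences), while Iglc1 shared 73.3% with Iglc2 and 73.9% with Iglc3. The last 150 coding bases, next to the part that 3′ reads cover, are given for this reason, 5′ to 3′ on the minus strand, at chr16:19061755-19061904 for Iglc1, chr16:19198539-19198688 for Iglc2 and chr16:19065368-19065517 for Iglc3. Capitals in Iglc1 mark the 51 bases that differ from both others, and capitals in Iglc2 and Iglc3 the 4 bases in which these differ from each other. Bases past the coding part, which 3′ reads cover, were not compared, so how well a 3′ tag tells Iglc2 from Iglc3 was not tested. The split of UMIs between Iglc2 and Iglc3 was taken as uncertain, and their sum with Iglc1 was used as lambda.
Iglc1: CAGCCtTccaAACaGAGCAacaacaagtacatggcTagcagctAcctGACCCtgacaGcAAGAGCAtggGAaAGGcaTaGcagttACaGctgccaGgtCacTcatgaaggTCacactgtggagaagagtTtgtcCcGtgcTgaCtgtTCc
Iglc2: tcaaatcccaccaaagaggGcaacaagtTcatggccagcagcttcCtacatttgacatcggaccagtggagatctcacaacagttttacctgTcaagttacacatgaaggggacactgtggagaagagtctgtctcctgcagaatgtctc
Iglc3: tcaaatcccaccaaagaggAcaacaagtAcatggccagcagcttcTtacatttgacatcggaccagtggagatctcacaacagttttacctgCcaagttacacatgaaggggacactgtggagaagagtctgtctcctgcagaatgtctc

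Kappa and lambda UMIs were often counted in the same B cell. A cell was given a light chain type with at least 10 light chain UMIs of which at least 90% were of 1 type. Among 51 and 61 cells with enough UMIs, 27 (52.9%, 95% Clopper-Pearson interval 38.5 to 67.1%) and 29 (47.5%, 34.6 to 60.7%) were kappa, 3 and 2 were lambda, and 21 and 30 met neither limit. The share depends on the limit. With 5 UMIs and 80% it was 73.0% and 68.3%, and with 20 UMIs and 95% it was 28.6% and 36.1%. Leaving out the secreting cells, 47 and 50 cells had at least 10 Igkc UMIs, and 38 and 41 of these also had a lambda UMI, with a median of 2 and a highest count of 40 and 27. Lambda made up 14.9% and 17.8% of the light chain UMIs of these cells. In turn 11 and 12 cells had at least 10 lambda UMIs, and Igkc was under 10 in 4 and 3 of them. Of all light chain UMIs of B cells outside the secreting cells, 79.3% and 77.9% were Igkc. Free RNA and cell mixtures were not tested for their part in this, beside the absence of Iglc2 from the other classes given above.

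**Figure D4:**
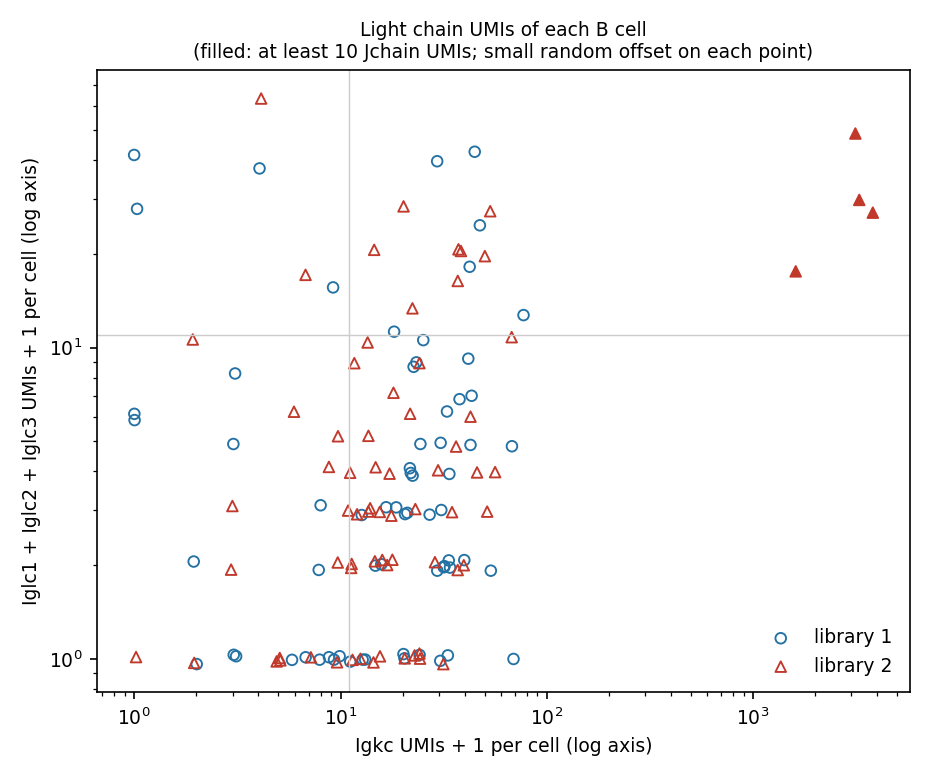
Igkc UMIs plus 1 (x axis) against the summed UMIs plus 1 of Iglc1, Iglc2 and Iglc3 (y axis) of each of the 137 B cells, on log axes, with grey lines at 10 UMIs. The 4 filled cells of library 2 with at least 10 Jchain UMIs lie above 1000 Igkc UMIs, and 7 open cells have at least 10 lambda and under 10 Igkc UMIs.

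Genes of MHC class II placed B cells between T/NK cells and dendritic cells. Cd74, the invariant chain of class II, had a UMI in all 67 and 70 B cells, with medians of 42 and 35 UMIs per cell, against 6.06% and 9.91% of fibroblasts. Of 15 tested genes 5 were called higher and 1 lower than in the other immune cells, with a median of 0.23. The separate comparisons went in opposite directions. Against T/NK cells 9 of the 15 were higher and none lower (over all genes 515, or 3.5%, were higher and 297, or 2.02%, lower), with a median of 3.60. Against dendritic cells 1 was higher and 6 lower (over all genes 807, or 5.48%, and 1058, or 7.18%), with a median of -1.96. Against macrophages 4 were higher and 4 lower (over all genes 1326, or 9%, and 1836, or 12.5%). With free RNA subtracted the calls over all genes turned to 1320 higher and 616 lower against dendritic cells and to 128 and 136 against T/NK cells, while 6 class II genes were still lower than in dendritic cells and none higher. Scaling by DESeq2's size factors lowered the median of all genes against T/NK cells by 0.16 (-0.16) and moved the calls to 403 higher and 385 lower. With DESeq2 itself they were 385 and 347 against T/NK cells and 1914 and 1495 against macrophages, where the median of all genes moved by 0.27.

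The chains that present peptide lay below dendritic cells in both libraries, but the test did not call them. H2-Aa was at 2699 and 1614 CPM in B cells, 13784 and 8732 CPM in dendritic cells and 4210 and 3626 CPM in macrophages. The groups did not overlap between B cells and dendritic cells, but with a log2 fold change of -2.38 ± 0.87 the difference was not called (adjusted p = 0.12). With no filter on low counts H2-Aa, H2-Ab1, H2-Eb1 and Cd74 were all called lower than in dendritic cells (adjusted p at most 1.01e-20). Cd74 was at 9831 and 6312 CPM in B cells and 36636 and 21709 CPM in dendritic cells (-1.87 ± 1.08, adjusted p = 0.33). T/NK cells held 0 and 1215 CPM of Cd74, the latter from 3 of 48 cells, and the difference of 4.0 ± 1.23 was not called (adjusted p = 0.11, and 0.0433 with DESeq2). H2-DMa, a subunit of the peptide exchange factor, was lower than in dendritic cells (-1.99 ± 0.25, adjusted p = 1.5e-06), and H2-DMb1, its partner chain, more so (-3.74 ± 0.29, adjusted p = 6e-11). Of the co-stimulators, Cd86 was lower than in dendritic cells (-2.36 ± 0.24, adjusted p = 1.4e-08), and Cd80 had 2 and 0 UMIs in B cells.

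Among the genes of this list that were higher in B cells than in the other immune cells were regulators of peptide loading. H2-Ob, a chain of the DO protein that restrains peptide exchange, was at 310.6 and 230.5 CPM in B cells, 185.4 and 143.8 CPM in dendritic cells and 7.08 and 11 CPM in macrophages. It was higher than in the other immune cells by 3.52 ± 0.30 (adjusted p = 1.8e-09) and not called against dendritic cells (0.73 ± 0.29, adjusted p = 0.099). Its partner H2-Oa was at 96.1 and 45.1 CPM in B cells and lower than in dendritic cells (-1.52 ± 0.37, adjusted p = 0.0043, and 0.103 with DESeq2). H2-DMb2, a second beta chain of the DM exchange factor, was at 224.2 and 132.8 CPM in B cells against 79.5 and 83.9 CPM in dendritic cells, 3.33 and 2.48 CPM in macrophages and 0 in T/NK cells. It was higher than in macrophages by 5.94 ± 0.42 (adjusted p = 7.7e-12). Against dendritic cells its 1.07 ± 0.35 (adjusted p = 0.040) lost the call under DESeq2, DESeq2's size factors, no library block and subtraction of free RNA (adjusted p from 0.0581 to 0.183). In dendritic cells of library 2, rod genes put the estimated share of free RNA at 58.0%, against 2.87% in the B cells there. That estimate rests on 228 rod UMIs, against 2 rod UMIs and 0.536% in dendritic cells of library 1. Whether these rod UMIs were free RNA was not tested, so the subtraction in dendritic cells is uncertain.

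**Figure D5:**
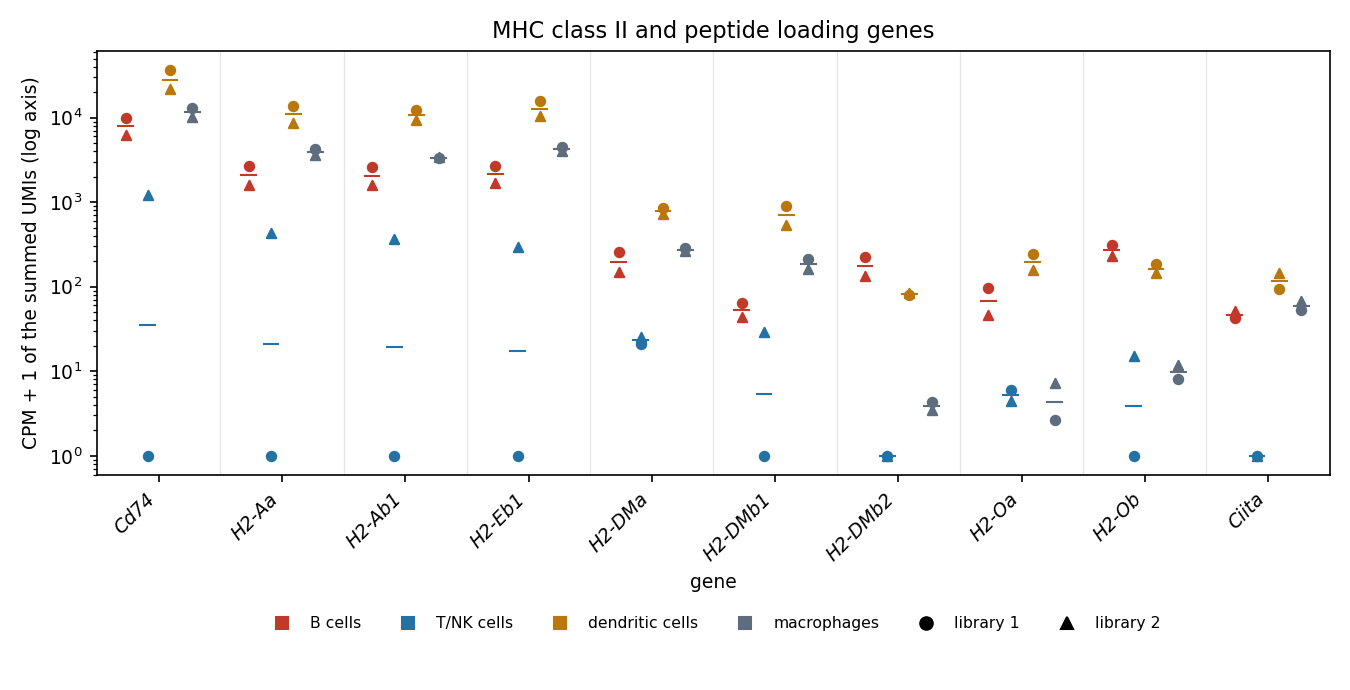
CPM plus 1 of 10 genes of MHC class II and peptide loading in 4 immune classes, on a log axis, with circles for library 1, triangles for library 2 and the dash at their geometric mean. Dendritic cells stand highest for the presenting chains, H2-DMa, H2-DMb1, H2-Oa and Ciita, and B cells for H2-DMb2 and H2-Ob.

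S1pr1 and Ccr7, homing receptors of circulating lymphocytes, were counted in both B and T/NK cells, while other members of this list were not. Of 19 tested genes 6 were called higher and 3 lower than in the other immune cells, with a median of 0.45 (5 and 3 without the mixed members), and 2 higher and 4 lower than in T/NK cells. S1pr1, the receptor that lets lymphocytes leave tissue, was at 285.0 and 230.5 CPM in B cells and 382.1 and 240.9 CPM in T/NK cells (-0.25 ± 0.27, adjusted p = 0.71). It was higher than in macrophages by 3.90 ± 0.28 (adjusted p = 8.4e-11). Ccr7, the receptor for the T zone of lymph nodes, was at 377.9 and 338.3 CPM in B cells, 412.2 and 460.9 CPM in T/NK cells and 1066 and 734 CPM in dendritic cells. Cxcr5, the receptor for follicles, was at 64.0 and 52.6 CPM from 17 and 17 cells, and higher than in T/NK cells by 3.8 ± 0.97 (adjusted p = 0.015, 0.524 with DESeq2 and 0.0774 with free RNA subtracted). Ccr6 was at 51.2 and 47.6 CPM and at least 7.96-fold above T/NK cells. Selplg, the ligand of P-selectin, was lower than in the other immune cells (-2.73 ± 0.33, adjusted p = 4.9e-07), and Cxcr3, a receptor of activated T cells, had no UMI in B cells. Ccr7 and Cxcr5 were seen together in 12 and 13 cells.

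Of receptors and ligands of the TNF family, the BAFF receptor and Ltb were among the genes higher in B cells. Tnfrsf13c, the BAFF receptor on which mature B cells depend, was at 256.2 and 215.5 CPM and seen in 40 and 45 cells (59.7% and 64.3%), against 0.0681% and 0.0660% of fibroblasts. It was higher than in the other immune cells by 5.66 ± 0.37 (adjusted p = 4.4e-12) and than in dendritic cells by 2.22 ± 0.36 (adjusted p = 5.1e-05). Its ligand Tnfsf13b had no UMI in B cells and stood at a mean of 23.0 CPM in macrophages. Tnfrsf13b, the receptor TACI, was higher by 1.91 ± 0.47 (adjusted p = 0.0061, and 0.0618 without the 4 antibody-secreting cells). Ltb, a lymphotoxin chain that organises lymphoid stroma, was at 320.2 and 268.1 CPM in B cells and 291.6 and 206.0 CPM in T/NK cells, and higher than in the other immune cells by 3.97 ± 0.25 (adjusted p = 7.6e-13). Tnf had 1 UMI in each library (-4.72 ± 0.73, adjusted p = 2.3e-05). Of 20 tested genes of this list 3 were higher and 7 lower, with a median of -0.73. The lower genes include survival factors of the Bcl2 family, with Bcl2a1d at 48.0 and 35.1 CPM in B cells and 1456 and 1006 CPM in macrophages (-3.70 ± 0.35 over the other immune cells, adjusted p = 5.9e-07) and Bcl2l1 at 1 and 4 UMIs (-3.08 ± 0.63, adjusted p = 0.00087). Bcl2a1a, Bcl2a1b and Bcl2a1d are near-identical copies, so their split is uncertain. Nfkbia, the NF-kB inhibitor that NF-kB itself induces, was lower too (-1.51 ± 0.24, adjusted p = 0.00042). Against T/NK cells alone only Tnfrsf4 and Bcl2a1d of this list were called lower, and Tnfrsf13c higher. There B cells stood at 1.02-fold of T/NK cells for Nfkbia and at 0.853-fold for Bcl2l1, the latter on 5 and 4 UMIs.

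Toll-like receptor genes gave few UMIs. Of 13 tested genes none was higher and 1, Tlr2, lower than in the other immune cells (-2.41 ± 0.65, adjusted p = 0.014, and 0.149 with free RNA subtracted). Without the mixed members 2, Ly86 and Unc93b1, were called higher. Tlr7 had 1 and 3 UMIs and Tlr9 had 3 and 0 in all B cells. Cd180, a TLR-like receptor of B cells, was at 67.3 and 25.1 CPM from 14 and 8 cells, and its partner Ly86 at 121.7 and 67.7 CPM, while macrophages held 114.6 and 127.7 CPM of Cd180 and 499.6 and 309.3 CPM of Ly86.

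Precursor genes were nearly absent. Of 12 precursor genes 6 had no UMI in any B cell: Rag1, Rag2, Dntt, Vpreb1, Vpreb2 and Igll1, which recombine and pair immunoglobulin chains in bone marrow. Il7r, the receptor on which mouse precursors grow, had 6 and 2 UMIs and was lower than in the other immune cells (-4.85 ± 0.42, adjusted p = 9.1e-08). Erg and Sox4 of this list were called higher, with 0 and 8 UMIs and 9 and 10 UMIs, of which 0 and 2 and 4 and 5 remained without the mixed members, and neither was called then. Of 9 follicular naive genes 5 were higher and none lower (median 1.35, and 3 with DESeq2), with Ighd, Fcer2a, Cxcr5 and Bach2 among them. With DESeq2 the calls of Ighd, Fcer2a and Cxcr5 were lost (adjusted p = 0.372, 0.387 and 0.173) and Klf2 gained one (adjusted p = 0.0121). Fcer2a was counted in 10 and 14 cells, of which 9 and 11 also had an Ighd UMI. Vpreb3 and Fcer2a were seen together in 2 and 7 cells, with Vpreb3 in 35 and 27.

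Marginal zone and B-1 genes were called in both directions, and several had few or no UMIs. The shares over all genes were 6.2% higher and 3.07% lower than in the other immune cells. In lists of 8 or 10 genes a count of 1 lies near these shares and is not read as a sign of a subset. Of 8 tested marginal zone genes 3 were called higher (Dtx1, S1pr3 and Mzb1) and 2 lower (Cd9 and Tm6sf1) than in the other immune cells, and of 10 tested B-1 genes 1 higher (Bhlhe41) and 1 lower (Cd9). S1pr3 kept 1 and 2 UMIs without the mixed members and was then not called, and 3 B-1 genes were then lower (Cd9, Bhlhe40 and Ahnak). Over all genes 511 were higher and 814 lower in that fit. Cr2, the complement receptor CD21 that is high on marginal zone cells, had 0 and 6 UMIs, and Cd1d1 had 0 and 3. Dtx1, a Notch target of marginal zone cells, was at 70.5 and 57.6 CPM and higher than in T/NK cells (3.95 ± 0.87, adjusted p = 0.0037, and 0.0577 with free RNA subtracted). Cd9, also of this list, was lower than in the other immune cells (-1.35 ± 0.21, adjusted p = 2.7e-05, and 0.073 with free RNA subtracted). Against T/NK cells alone Cd9 was not called, and B cells stood 1.94-fold above them by summed UMIs. Cd5, a marker of B-1a cells, had no UMI in 137 B cells, Spn had 0 and 3, and Bhlhe41, a factor of B-1a cells, had 24 and 24 UMIs, of which 14 and 9 remained without the mixed members. Among memory genes 1 of 8 was higher, Cd38 (4.16 ± 0.55, adjusted p = 5.9e-05), an ectoenzyme that mouse naive and memory B cells also share. Nt5e and Pdcd1lg2 had 4 and 1 UMIs and 5 and 12 UMIs. Germinal centre and cycling genes were low: S1pr2, a receptor of germinal centre B cells, had no UMI, and Mki67, a marker of dividing cells, had 0 and 2. Of 11 tested genes of this list 5 were lower than in the other immune cells and 1, Mef2b, higher on 5 and 2 UMIs, with a median of -1.04. Stmn1, a tubulin regulator of dividing cells, was at 57.6 and 57.6 CPM against 291.3 and 306.5 CPM in macrophages (-2.31 ± 0.37 over the other immune cells, adjusted p = 0.0006).

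Early response genes differed by member, and some rested on the mixed cells. Of 21 tested genes 6 were called higher and 2 lower than in the other immune cells, with a median of 0.32, and 4 higher and 4 lower without the mixed members. Cd69, an activation marker that holds lymphocytes in tissue by removing S1pr1 from the surface, was at 288.2 and 278.1 CPM and seen in 35 and 33 cells. It was higher by 3.04 ± 0.43 (adjusted p = 0.00066), though not called against T/NK cells at 186.0 and 48.9 CPM (1.38 ± 0.54, adjusted p = 0.2). Cd69 and S1pr1 were seen in the same cell in 19 and 18 cases. Nr4a1, an early target of the B cell receptor, was at 416.3 and 268.1 CPM and higher by 2.17 ± 0.30 (adjusted p = 0.00017). It kept 121 of 130 and 89 of 107 UMIs without the mixed members. Egr3 was at 112.1 and 135.3 CPM and higher by 4.09 ± 0.37 (adjusted p = 1.3e-09), from 12 and 26 cells, and Myc was at 128.1 and 90.2 CPM and higher by 1.95 ± 0.35 (adjusted p = 0.00051). Fibroblasts of the same digests held 222.7 and 180.9 CPM of Nr4a1 and 45.3 and 41.9 CPM of Egr3. Fosb was called higher by 1.37 ± 0.28 (adjusted p = 0.0019), but its UMIs went from 49 to 3 and from 82 to 11 without the mixed members, and its log2 fold change then was -1.605 (adjusted p = 0.0578). Egr1, higher by 1.33 ± 0.24 (adjusted p = 0.00021), came to 0.91 without them and was not called with free RNA subtracted (adjusted p = 0.0908). Against T/NK cells and dendritic cells Egr1 was called higher, but against macrophages it was called lower. Macrophages stood 2.48-fold above B cells for Egr1 by summed UMIs. Of the 21 genes, 5 were called higher and 9 lower than in macrophages.

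Cytokine and interferon genes were called in both directions with all members. Over all genes 6.2% were called higher and 3.07% lower than in the other immune cells. Of 12 tested cytokine genes 2 were higher, Ltb and Il12a, the latter on 3 and 9 UMIs, and 3 lower: Tnf, Ebi3 and Ccl4. Il10, the cytokine of regulatory B cells, had 1 and 10 UMIs in 1 and 2 cells, against 693.8 and 595.7 CPM in macrophages. Il6 had 1 and 12 UMIs, and 1 and 0 without the mixed members. Of 15 interferon-induced genes 1, Gbp2, was higher and 1, Bst2, lower, and none higher and 4 lower without the mixed members. Isg15 UMIs went from 38 to 8 and from 83 to 3, and Ifit1 UMIs from 23 to 2 and from 47 to 0, when those members were left out.

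Beyond the lists, the genes with the largest rise included Gm30211 and Gm31243, gene models without a named function, with 28 and 49 and with 23 and 23 UMIs. Gm30211 was at 0 in the other immune cells. The genes with the largest fall were Pclaf, Ccr2, Tnfrsf9, Ccl5 and Rgs1. The first 3 had no UMI in B cells, and in the class where each was highest they stood at means of 95.8 CPM for Pclaf, a replication factor partner, in dendritic cells, and of 107 and 101 CPM for Ccr2, a monocyte chemokine receptor, and Tnfrsf9, the receptor 4-1BB, in T/NK cells. Ccl5, a T cell chemokine, had 1 and 1 UMIs in B cells against a mean of 3620 CPM in T/NK cells (-7.34 ± 1.69 over the other immune cells, adjusted p = 0.026, and 0.108 without Scrublet doublets). Rgs1, a brake on chemokine receptors, was lower as well (-6.25 ± 0.62, adjusted p = 4.9e-05). Over the 20 sums of classes and libraries, the genes most like Cd79a by Pearson's r of log2(CPM + 1) were Pou2af1, Iglc2, Fcer2a, Fcmr and Pax5, with r of 0.996 to 0.997. Most of the 20 sums are at or near 0 for these genes, so r is set by the 2 sums of B cells.

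Over 14735 genes log2(CPM + 1) of the B cell sums correlated with r = 0.85 across genes, which are not independent replicates, and with 0.867 without the mixed members. Of 1786 genes with at least 50 UMIs over both libraries 56 differed by over 4-fold. Among these were Jchain, at 2 and 1836 UMIs, and stromal genes such as Igfbp5, at 98 and 581 UMIs with all members and 11 and 10 without the mixed ones. Lyz2, given above, was another, with 186 and 5 UMIs.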

How the data were processed

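Single-cell RNA was counted in 2 libraries of untreated choroid-RPE. The deposited values are whole UMI counts per gene and barcode with no normalization, made with Cell Ranger 4 per the file headers. The submitters' processing notes name Cell Ranger 2.1.1 and mm10, and which version made the tables could not be settled. The tables list 1959894 and 1856693 barcodes, and cells were taken from them by the limits given with the selection rule.

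Comparison cells were gated likewise: T/NK cells by at least 3 UMIs of Cd3d, Cd3e, Cd3g and Nkg7, dendritic cells by at least 3 of Flt3, Zbtb46, Cd209a, Xcr1, Clec9a and Ccl22, and macrophages by at least 10 of C1qa, C1qb and C1qc, each from at least 2 genes. Classes needed 20 cells in each library. Counts were summed per class and library and tested with edgeR 4.0.16 (R 4.3.3, limma 3.58.1, TMM, filterByExpr, robust quasi-likelihood, 9 residual degrees of freedom). The fit was also run on simulated counts in which all classes shared a common profile, apart from set changes in B cells. That run had no library effect, no mixed members and no genes kept absent from a class, so it tests none of these. The 35 genes of the gates were not tested. Fold changes carry the SE of the fit. Every class was present in both libraries, which come from different mice, so library entered as a block; a fit without it was an alternative.

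Doublets were left in the classes. Scrublet (scanpy 1.11.5) marked 214 and 706 cells, 1 and 5 of them B cells, and an alternative left them out. Free RNA was estimated from rod genes and from barcodes of at most 100 UMIs. It was put at 3.71% and 2.87% of B cell UMIs, and at 0.536% and 58.0% of dendritic cell UMIs. Other alternatives were DESeq2 1.42.0, its size factors, no filter on low counts, only the 4 immune classes, a marker sum of at least 6, and each library alone. A further 2, without the mixed members and without antibody-secreting cells, were chosen after seeing the data. Gene positions are from GENCODE M21 (99.6% of gene identifiers matched).

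Any gene of the lists may be named, and some of their genes are not reported here. Besides these, the text names the 15 called genes with the largest rise and the 5 with the largest fall against the other immune cells (at least 10 UMIs per library in B cells, or in each other class), and the 5 genes most like Cd79a. A gene outside this rule, Igfbp5, was chosen after its values were seen. The members and the lists were chosen with earlier results of these data known.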

Additional observations from a re-analysis of the deposited data

How the results depend on the processing

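Counts of called genes moved by over 1.5 times under some alternatives. Against the other immune cells, 914 higher genes became 521 with only the 4 immune classes and 511 without the mixed members, and 453 lower genes became 232 with free RNA subtracted and 814 without the mixed members. Against T/NK cells, 515 higher became 128 with free RNA subtracted and 308 without the mixed members, and 297 lower became 136 with free RNA subtracted. Against dendritic cells, free RNA subtraction gave 1320 higher (from 807) and 616 lower (from 1058). Against macrophages, 1326 higher became 807 without the mixed members, and 1836 lower became 1161 with only the 4 immune classes. The fit with only the 4 immune classes uses fewer sums; the cause of the other changes was not tested. The kappa share went from 52.94% to 73.02% in library 1 and from 47.54% to 68.25% in library 2 with 5 UMIs and 80%, and to 28.57% in library 1 with 20 UMIs and 95%. Of 117 named fold changes of 83 genes, 1 changed sign, Fosb without the mixed members (-1.605, adjusted p = 0.0578). DESeq2 lost 21 calls and added 2; it gave no adjusted p for 2001 genes against the other immune cells. Without the replicate block 112 of the 117 kept their side of the threshold: Bach2 (adjusted p = 0.083), Prkcb (0.051), H2-DMb2 (0.0897) and Cd83 (0.0693), the last 2 against dendritic cells, lost the call and Klf2 gained it (0.0161). With no filter on low counts 107 kept their side and 10 gained a call. A marker sum of at least 6 changed none of the 117. With 1 library alone no test is possible, and 31 fold changes without library 1 and 41 without library 2 moved by more than 1 SD.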

Other observations

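Ighm UMIs were also counted in macrophages, in 185 of 385 cells of library 1 (48.1%, 95% Clopper-Pearson interval 43.0 to 53.2%) and 371 of 786 of library 2 (47.2%, 43.7 to 50.8%), at 158.3 and 123.1 CPM. Among dendritic cells the shares were 14.3% and 21.3%, and among fibroblasts 0.238% and 0.396%. Igkc, by contrast, was counted in 0 of 385 and 18 of 786 macrophages (2.29%), and Iglc2 in none. B cells stood at 925.4 and 2669 CPM of Ighm. In library 2, 668 of the 1065 Ighm UMIs of B cells came from 1 antibody-secreting cell. The median was 3 Ighm UMIs per B cell in both libraries.

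Variable genes, which differ between B cell clones, were counted with few UMIs per cell. A heavy chain variable gene had a UMI in 22 and 31 B cells, and at least 2 UMIs in 4 and 6, from 4 and 5 different genes. Of these 6 cells of library 2, 4 were the antibody-secreting cells. A kappa variable gene had a UMI in 13 and 27 cells, and at least 2 UMIs in 1 and 13, from 1 and 11 genes.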
